A study of Mus musculus with 6 samples.

Results

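The tetraspanins described here were the 27 genes, of 23038 listed in the deposited gene tables, whose symbol began with Tspan and a digit or was Cd9, Cd37, Cd53, Cd63, Cd81, Cd82 or Cd151. The rule used their names and no measured value, though it was set with earlier results of these data known. They were followed in poly-A RNA from mouse oligodendrocyte precursor cells (mOPCs), the dividing glial cells that give rise to the myelin-forming oligodendrocytes of the central nervous system. The mOPCs were purified from embryos at embryonic day 14.5 by immunopanning, in which antibody-coated dishes retain the wanted cells. They were transfected with control siRNA (siNC, 3 libraries) or with siRNA against Qk (siQk, 3 libraries), and RNA was collected 72 h later. Qk encodes the Quaking proteins, RNA-binding proteins of the STAR family that act on splicing, stability and transport of RNA and are known for their part in myelination. No strain, genotype or age beyond the embryonic stage was given for the source animals, and all 6 libraries shared the immunopanning, the culture and the transfection. Different siRNAs against Qk were used, but which siQk library received which siRNA was not given. The cells were thus a culture with a transient knockdown and not a Qk mutant.

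Tetraspanins are small proteins that cross the membrane several times and assemble with integrins, immunoglobulin-superfamily proteins, proteases and each other into membrane microdomains. Cd9, Cd81 and Cd63 are classical markers of extracellular vesicles, the TspanC8 members escort the protease Adam10 out of the endoplasmic reticulum and steer its choice of substrates, and Tspan12 is a co-receptor for the ligand norrin. In the oligodendrocyte lineage Cd9, Cd81 and Tspan2 are found on maturing cells and in myelin.

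The level of a gene was given by the authors as RPKM (reads scaled by exon length and library size), and a difference was tested with edgeR's quasi-likelihood test on the deposited tag numbers, the estimated counts of sequenced fragments per gene. A gene was called changed when P was below 0.01 and the Benjamini-Hochberg false discovery rate (FDR) was below 0.1 over all 12505 genes tested. The libraries held between 58166490 and 141045937 tags, and siNC 1 was the smallest. In siNC 1 the ribosomal RNA precursor Rn45s took 3.11% of the tags, against 0.169 to 0.389% in the other libraries. Qk itself was found at 209, 206 and 163 RPKM in the siNC libraries and at 51.3, 76.6 and 36.2 RPKM in the siQk libraries (log2 fold change −1.98, SE 0.28, FDR 0.00311), so every library followed its label. The deposited RPKM carry no correction for composition, whereas the test used TMM factors, which were 0.899 to 0.987 in siNC and 1.04 to 1.07 in siQk. A tested fold change therefore lies lower than the ratio of the RPKM means. Without the TMM factors the median of all tested genes moved from 0.010 to 0.16 on the log2 scale.

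The culture carried the genes of its lineage. OPC genes summed to between 1057 and 1133 RPKM in siNC and between 1283 and 1445 RPKM in siQk, and 4 of the 10 on that list were called higher and 1 lower (median log2 fold change 0.28). Myelin and mature oligodendrocyte genes summed to 6126, 5418 and 3515 RPKM in siNC and to 1786, 1515 and 2278 RPKM in siQk. Of the 11 tested, 8 were called lower and 0 higher (median −1.35). Over all tested genes 13.8% were called higher and 17.2% lower. In a bulk culture fewer cells of a type and less RNA per cell cannot be told apart, which holds for every value that follows.

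Of the 27 tetraspanins, 21 were expressed highly enough to be tested, and 12 of these were called changed. The called members were 57.1% of those tested, against 31.0% of all tested genes. In siQk 10 members were called lower, 47.6% of those tested against 17.2% of all genes. Only Tspan7 and Tspan13 were called higher, 9.52% against 13.8% of all genes. The 21 members had a median log2 fold change of −0.53, whereas the median over all tested genes was 0.010. The other 9 members did not pass, which does not show that they were unchanged. Of the 12 calls, 9 were made under every alternative analysis tried (Cd9, Cd63, Cd81, Cd151, Tspan2, Tspan3, Tspan12, Tspan13 and Tspan15), and those on Tspan6, Tspan7 and Tspan17 were not.

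**Figure D1:**
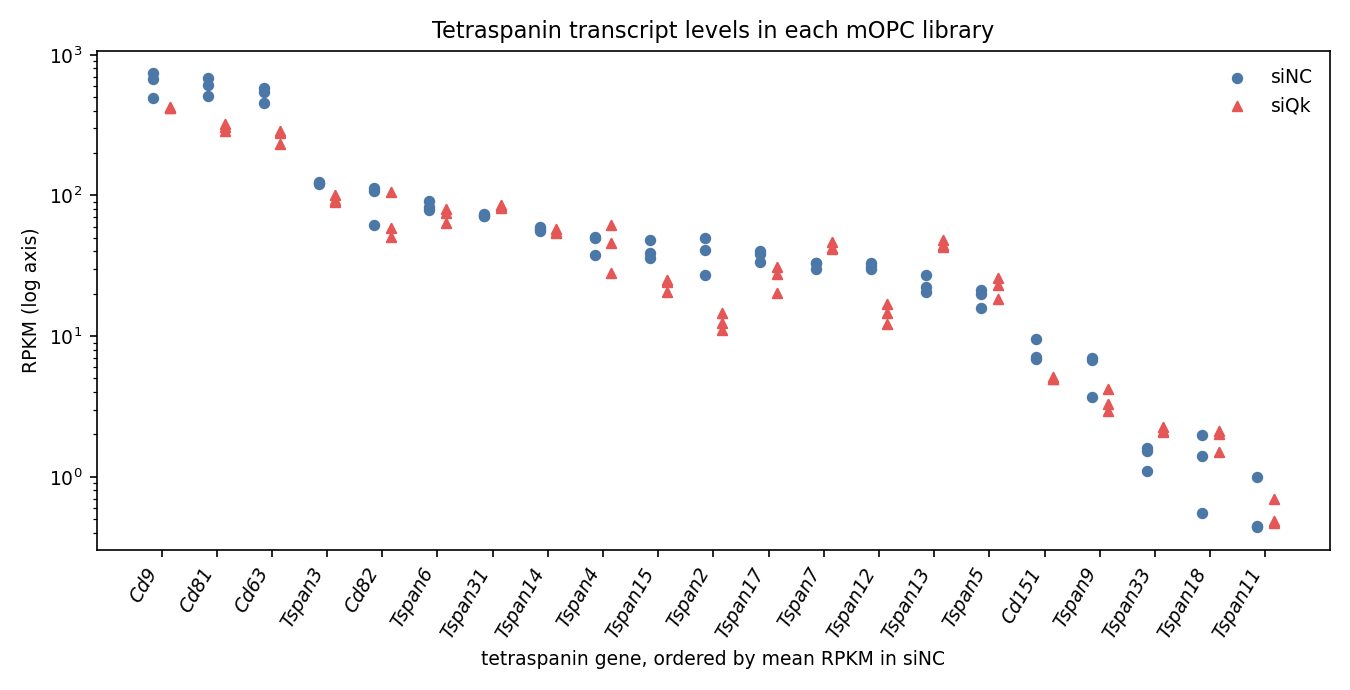
RPKM of each tested tetraspanin (log axis) in the 3 siNC and the 3 siQk libraries, 1 point per library. The siQk points of Cd63, Cd81, Tspan2 and Tspan12 lie below all siNC points, those of Tspan13 lie above them, and those of Cd82 and Tspan4 are spread among them.

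Because Quaking proteins bind the RNA motif ACUAAC or ACUAAU, the 3′UTRs of the tested members were searched for these letters on the transcript strand, in 1 3′UTR per gene, the longest of its coding transcripts (GENCODE M21, mouse genome GRCm38, which is mm10). At least 1 motif was found in 8 of the 21 tested members (38.1%), compared with 4266 of 11825 tested genes with a 3′UTR (36.1%). The density was 0.363 motifs per kb in the members and 0.345 per kb in all these genes. Among the members called lower 4 of 10 held a motif (40.0%), whereas 52.9% of all genes called lower did. The 3′UTRs of these members were shorter, with a median of 767.5 bases against 1566 bases, and by density they held more motifs, 0.624 per kb against 0.494 per kb. Both members called higher held at least 1, against 27.3% of all genes called higher. These are only 2 genes, and their 3′UTRs were longer, with a median of 3757.5 bases against 1145 bases. By density they held 0.399 motifs per kb against 0.245 per kb. The motif sites of the called members are listed for description. They were selected on the call and on the letters, so that both occur together in them is no result. Each line gives 30 bases of the transcript strand, 5′ to 3′ with T for U, and capitals mark the motif.
Cd9, chr6:125460575-125460604, minus strand: gttttttttgccACTAATattagtattcat
Tspan12, chr6:21772261-21772290, minus strand: ctgactcctctaACTAACctataaactatc
Tspan12, chr6:21771850-21771879, minus strand: aagttgttaaccACTAATtttggaaattac
Tspan2, chr3:102769606-102769635, plus strand: ttaaagactaaaACTAACaactttgaaggg
Tspan2, chr3:102771157-102771186, plus strand: ctgtttacctgaACTAATttgagatcagac
Tspan15, chr10:62187209-62187238, minus strand: actctatgggaaACTAATagtaagacttaa
Tspan15, chr10:62186584-62186613, minus strand: ccgtgctccctaACTAATccccctttggtt
Tspan13, chr12:36015618-36015647, minus strand: atctcaaattaaACTAATttgttcatacga
Tspan7, chrX:10590424-10590453, plus strand: ggttacagtttaACTAATgactatctccag
Tspan7, chrX:10591017-10591046, plus strand: tttttttttcagACTAACagatcatttttc
Counted from 1 at the first base after the stop codon, the motif began at base 69 in Cd9 and at base 63 in Tspan13, and between bases 205 and 2227 in the other members shown. Of the members not called, Tspan18 held 3 motifs and Tspan5 held 1. No motif was found in the 3′UTR windows of Cd81, Cd63, Cd151, Tspan3, Tspan6 or Tspan17, all called lower. A match of these letters is a description of the sequence and does not show binding.

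The tetraspanins of the oligodendrocyte lineage and their integrin-associated relatives were called lower in siQk for 5 of 6 members, against 17.2% of all tested genes, with a median log2 fold change of −0.77. Tspan2, a tetraspanin of early myelinating oligodendrocytes (chr3:102734529-102801513, plus strand), had the largest fall of the 21 tested members. Its level was 41.1, 49.8 and 27.3 RPKM in siNC and 12.3, 11.1 and 14.6 RPKM in siQk. The lowest siNC library was thus well above the highest siQk library, and the siQk mean was 32.2% of the siNC mean (log2 fold change −1.79, SE 0.24, FDR 0.00275). Its 3′UTR held 1 motif of each form, at bases 676 and 2227.

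Cd81, a partner of immunoglobulin-superfamily proteins and integrins (chr7:143052739-143067934, plus strand), was measured at 683, 609 and 506 RPKM in siNC and at 306, 286 and 321 RPKM in siQk. The groups did not overlap, and siQk was 50.8% of siNC (log2 fold change −1.14, SE 0.15, FDR 0.00247). Cd9 (chr6:125460266-125494791, minus strand), which joins integrins and the precursor of heparin-binding EGF-like growth factor, was the most abundant member in siQk. Cd9 gave 668, 495 and 737 RPKM in siNC and 423, 419 and 421 RPKM in siQk. The siQk libraries were nearly alike (SD 2.33 RPKM) and below every siNC library (66.4% of siNC, log2 fold change −0.74, SE 0.15, FDR 0.00982).

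Cd151, the tetraspanin bound most firmly to laminin-binding integrins, was present at a lower level of 7.11, 6.85 and 9.58 RPKM in siNC and 4.92, 4.95 and 5.15 RPKM in siQk. It was called lower, with siQk at 63.8% of siNC (log2 fold change −0.80, SE 0.13, FDR 0.00504). Tspan3, which binds the myelin protein claudin-11 of oligodendrocytes, varied little within siNC, at 122, 121 and 126 RPKM, and was 92.4, 101 and 90.5 RPKM in siQk. Its fall to 76.9% of siNC was small but larger than the spread in either group (log2 fold change −0.53, SE 0.07, FDR 0.00257).

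Cd82, known as a suppressor of cell migration, was the member of this set that did not pass. It stood at 114, 107 and 61.9 RPKM in siNC and at 59.1, 50.9 and 105 RPKM in siQk. One library of each group sat with the other group, and the groups overlapped (log2 fold change −0.55, SE 0.35, FDR 0.247). Without siNC 3 its log2 fold change was −0.80 (FDR 0.0919) and without siQk 3 it was −0.94 (FDR 0.0663). Over all alternatives the FDR of Cd82 ranged from 0.0663 to 0.516, and it was called in 0 of 14. The same libraries stood apart for the myelin genes, where siNC 3 had the lowest sum of siNC and siQk 3 the highest sum of siQk. The part of this shift in the values of Cd9, Cd81, Tspan2 and Cd82 was not tested. Astrocyte genes, whose cells also carry Cd81 and Cd9, summed to 167 to 239 RPKM in siNC and 123 to 143 RPKM in siQk. Against 17.2% of all tested genes, 3 of the 5 tested astrocyte genes were called lower. These were Gfap (51.4 to 101 RPKM in siNC, 9.08 to 11.3 RPKM in siQk), Slc1a3 (25.5 against 10.9 RPKM on average) and Aldh1l1 (7.02 against 1.69 RPKM), whereas Aldoc was not called and Gja1 was at most 0.013 RPKM. The part of these genes was not tested either.

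**Figure D2:**
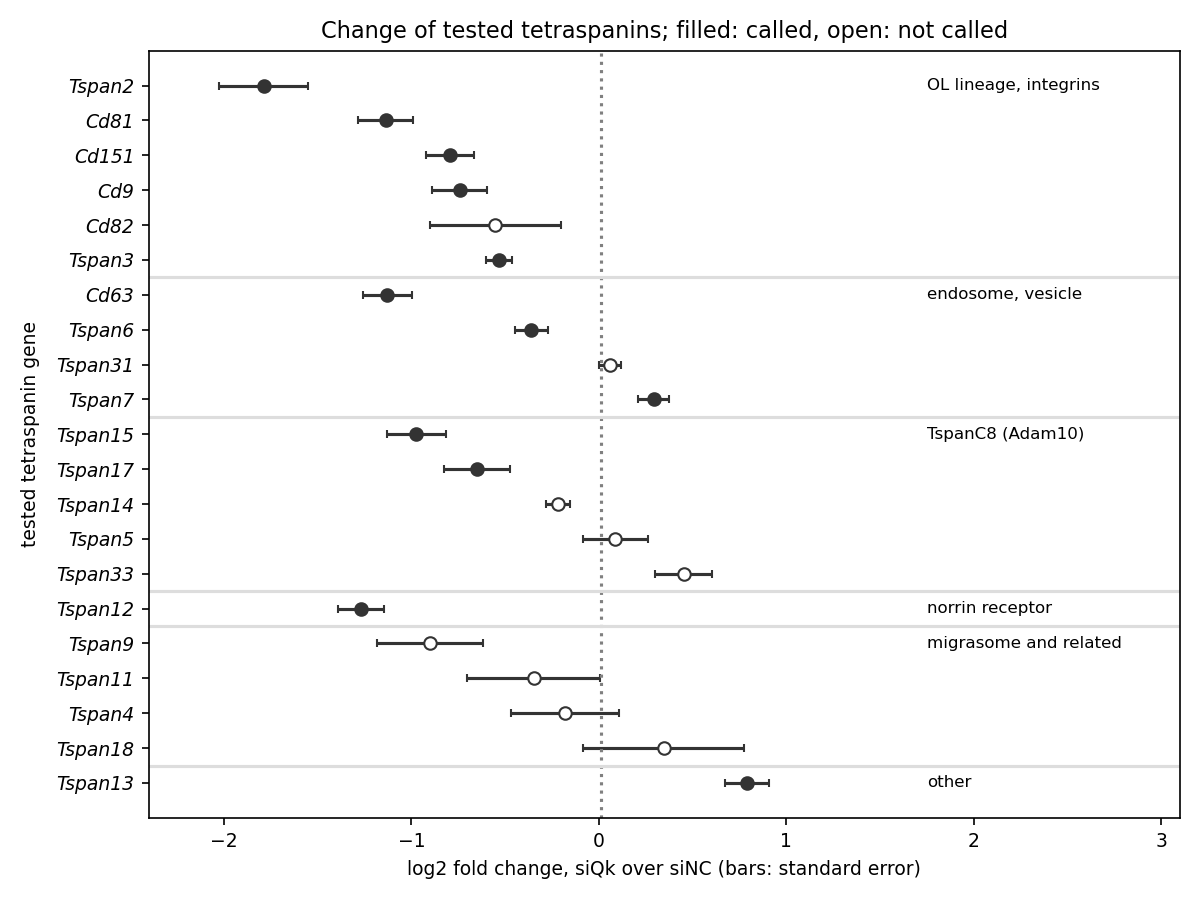
Log2 fold change of siQk over siNC for the 21 tested tetraspanins, grouped by role, with bars of 1 SE from edgeR and a dotted line at 0.010, the median of all tested genes. Filled points mark calls: 10 lie below 0, from −1.79 for Tspan2 to −0.36 for Tspan6, and 2 above 0, Tspan13 and Tspan7.

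Of the members of endosomes and vesicles, 2 were called lower and 1 higher of 4 tested, against 17.2% and 13.8% of all tested genes. Cd63, a resident of late endosomes and lysosomes that is released on exosomes (chr10:128900989-128912822, plus strand), fell to 50.8% of its siNC level. It was measured at 543, 454 and 581 RPKM in siNC and at 280, 233 and 288 RPKM in siQk. All siQk libraries were below all siNC libraries (log2 fold change −1.13, SE 0.13, FDR 0.00179). The value rested on at least 21815 tags in every library.

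Tspan7, which regulates synaptic receptor trafficking in neurons (chrX:10485158-10596605, plus strand), moved the other way. It was 32.9, 29.963 and 33.1 RPKM in siNC and 41.7, 46.8 and 42.4 RPKM in siQk, without overlap. Its call was weak (log2 fold change 0.29, SE 0.08, FDR 0.0308) and was made in 7 of 14 alternatives, with an FDR between 0.00559 and 0.102. The call on Tspan7 was lost with RLE normalization, with the replicate number as a block (FDR 0.0903) and when siNC 2, siNC 3 or any 1 of the siQk libraries was left out. Neuronal genes summed to between 102 and 172 RPKM in siNC and between 81.4 and 120.3 RPKM in siQk. Most of each sum was Tubb3 (97.6 to 166 RPKM in siNC, 68.4 to 104 RPKM in siQk), which was not called. Of these genes 2 of 5 tested were called higher and 0 lower, against 13.8% and 17.2% of all tested genes. They were Snap25 (0.751 against 5.18 RPKM on average, log2 fold change 2.64) and Nefl (1.88 against 6.36 RPKM, 1.61). The part of the neuronal genes in the Tspan7 value was not tested.

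Tspan6, a regulator of vesicle formation, gave 78.8, 82.2 and 91.3 RPKM in siNC and 74.7, 80.0 and 63.6 RPKM in siQk, and the deposited levels overlapped. After the TMM scaling the groups did not overlap, and Tspan6 was called lower (log2 fold change −0.36, SE 0.09, FDR 0.0207). On library size alone its log2 fold change was −0.21 and was not called, and its FDR ranged from 0.00175 to 0.138 over the alternatives, 7 of 14 of which called it. The call was also lost under the block (FDR 0.0606), with upper quartile scaling and when siNC 1, siNC 3, siQk 1 or siQk 3 was left out.

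Tspan31, found amplified next to Cdk4 in sarcomas, showed how the scaling bears on small differences. Its deposited level was 71.9, 71.7 and 74.4 RPKM in siNC and 84.5, 81.7 and 86.1 RPKM in siQk, without overlap. After TMM scaling the groups overlapped and the log2 fold change was 0.06 (SE 0.06, FDR 0.455), whereas it was 0.21 on library size alone. In addition, 641 exon bases of Tspan31, 29.2% of its GENCODE M21 exons, lie opposite those of the cell cycle kinase gene Cdk4. The deposited values used an exon length of 1162 bases, so the counted part of this overlap is not known. Cdk4 averaged 419 ± 20.3 RPKM in siNC against 504 ± 37.3 RPKM in siQk (SD, n = 3 each). After TMM scaling its groups overlapped, and Cdk4 was not called (log2 fold change 0.11, FDR 0.325 by edgeR). The library kit does not mark strand, so reads of Tspan31 and Cdk4 in the shared bases cannot be told apart.

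Of the 5 tested TspanC8 members, the partners of Adam10, 2 were called lower and 3 did not pass. Of all tested genes 17.2% were called lower and 31.0% were called in either direction. Tspan15 (chr10:62185396-62231251, minus strand), the member that directs Adam10 to N-cadherin, was 48.4, 38.7 and 36.1 RPKM in siNC and 24.9, 20.7 and 24.4 RPKM in siQk. The groups did not overlap and siQk was 56.8% of siNC (log2 fold change −0.97, SE 0.16, FDR 0.00492). Tspan17, a close relative of Tspan5, followed with 38.1, 40.2 and 33.7 RPKM in siNC and 27.9, 20.2 and 31.2 RPKM in siQk. Its call (log2 fold change −0.65, SE 0.18, FDR 0.0278) was made in 9 of 14 alternatives, with an FDR between 0.00219 and 0.0754. It was lost without siNC 1, siNC 2 or siQk 1, under the block (FDR 0.0629) and on library size alone (log2 fold change −0.50).

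Tspan14 was the most abundant TspanC8 member in both groups, with 57.9, 56.1 and 59.8 RPKM in siNC and 54.1, 54.7 and 57.3 RPKM in siQk. These deposited ranges overlapped, whereas after TMM scaling the siQk libraries were all lower. The difference was not called (log2 fold change −0.22, SE 0.06, FDR 0.0367), since its P of 0.012 in edgeR was over the limit. Tspan5, the member that supports Notch cleavage with Tspan14, was not called at 19.9, 21.4 and 15.8 RPKM in siNC and 23.3, 18.3 and 25.9 RPKM in siQk (log2 fold change 0.09, SE 0.17, FDR 0.707). Tspan33, known from the erythroid lineage, had the lowest level of the tested TspanC8 members, 1.11, 1.52 and 1.61 RPKM in siNC and 2.25, 2.10 and 2.08 RPKM in siQk. The siQk libraries of Tspan33 were all higher, but the test did not pass (log2 fold change 0.45, SE 0.15, FDR 0.0558).

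Summed over the group, TspanC8 genes gave 166, 158 and 147 RPKM in siNC and 132, 116 and 141 RPKM in siQk, which was 82.8% of siNC. The difference of −27.1 RPKM became −42.5 RPKM with library totals scaled by TMM. The groups did not overlap, but with 3 libraries against 3 the two-sided exact permutation test cannot go below 0.1, and it gave p = 0.1. Within that sum, Tspan15 made up 29.3, 24.5 and 24.5% in siNC and 18.8, 17.9 and 17.3% in siQk. Tspan5 made up 12, 13.5 and 10.8% in siNC and 17.6, 15.8 and 18.4% in siQk. Tspan14 was the largest component in every library, from 35.0 to 40.7% in siNC and from 40.7 to 47.2% in siQk.

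**Figure D3:**
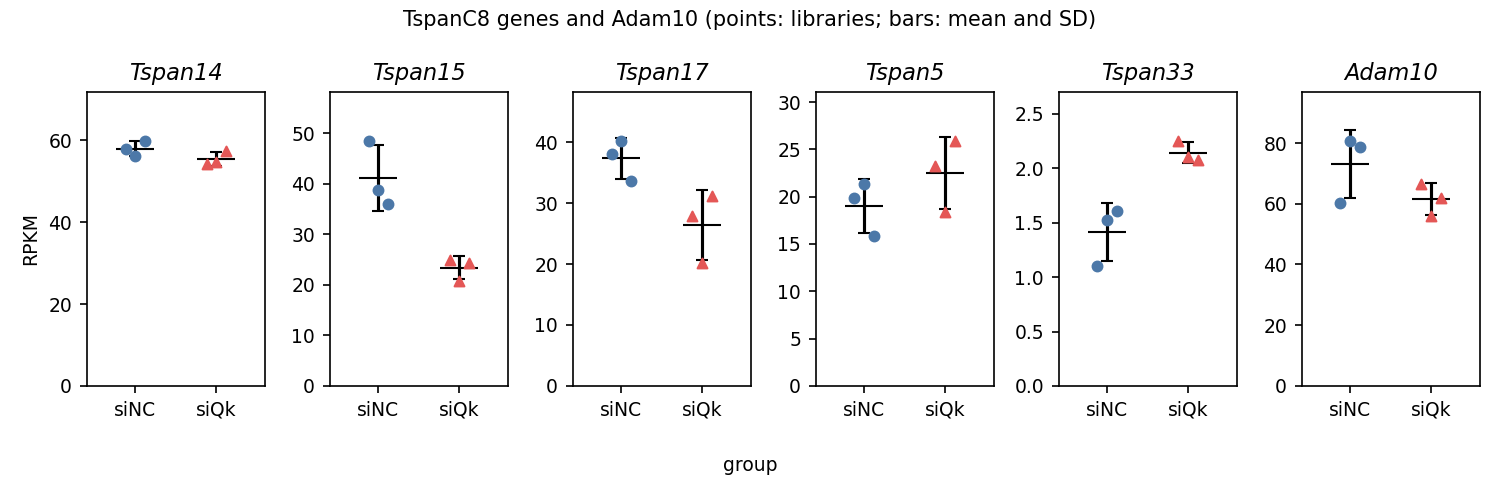
RPKM of Adam10 and of the tested TspanC8 members in each siNC and siQk library, with the group means and SD (n = 3) and an axis from 0 for each gene. Tspan15 and Tspan17 in siQk lie below all siNC points, the Tspan14 and Tspan5 points overlap, and Adam10 overlaps through siNC 1.

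Adam10, the protease that TspanC8 proteins carry, was measured at 60.2, 80.7 and 78.6 RPKM in siNC and at 66.6, 56.0 and 61.9 RPKM in siQk. The deposited levels overlapped through siNC 1, but after TMM scaling all siQk libraries were below all siNC libraries. Adam10 was called lower (log2 fold change −0.40, SE 0.11, FDR 0.0305), but in 6 of 14 alternatives only. The call was lost under the block, on library size alone (−0.25), with upper quartile scaling, and when siNC 2, siNC 3 or any siQk library was left out. Of 11 tested Adam10 substrates 5 were called, 2 higher and 3 lower, with a median log2 fold change of −0.11, beside 13.8% higher and 17.2% lower of all tested genes. Cd44, the hyaluronan receptor, averaged 17.1 ± 0.454 RPKM in siNC and 5.26 ± 0.83 RPKM in siQk (SD, n = 3 each), a log2 fold change of −1.85 with an FDR of 0.000446 by edgeR. The prion protein gene Prnp was also lower (−0.87), whereas the OPC proteoglycan gene Cspg4 (0.93) and the synaptic adhesion gene Nlgn3 (0.44) were higher.

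Tspan12, the norrin co-receptor of the receptor Fzd4 and a further partner of Adam10 (chr6:21771395-21852515, minus strand), had the lowest FDR of the family. It was 31.8, 32.9 and 29.9 RPKM in siNC and 14.7, 16.8 and 12.2 RPKM in siQk. The spread within each group was small beside the gap between them, and siQk was 46.2% of siNC (log2 fold change −1.27, SE 0.12, FDR 0.00104). Its ligand gene Ndp was lower as well, with 5.63 ± 1.39 RPKM in siNC against 3.25 ± 0.263 RPKM in siQk (SD, n = 3 each; log2 fold change −0.94, FDR 0.00771 by edgeR). The co-receptor gene Lrp5 was called higher (log2 fold change 0.37, FDR 0.018) here and in 9 of 14 alternatives, and Fzd4 was not called (0.36, FDR 0.201). Tspan12 and Tspan18 are also known from endothelial cells, and of the 8 fibroblast and vascular markers only Kdr was tested, at 2.27 to 4.70 RPKM in siNC and 3.35 to 4.53 RPKM in siQk, and was not called. The part of such cells in the values of Tspan12 and Tspan18 was not tested.

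Tspan13 (chr12:36014557-36042500, minus strand), a tetraspanin that binds voltage-gated calcium channels, was the clearest rise. It stood at 22.4, 27.3 and 20.7 RPKM in siNC and at 44.6, 42.9 and 48.0 RPKM in siQk. Every siQk library exceeded every siNC library, and siQk was 192% of siNC (log2 fold change 0.79, SE 0.12, FDR 0.0038). This call was kept in all 14 alternatives, in which its log2 fold change ranged from 0.69 to 0.94.

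None of the 4 members of migrasomes and their relatives was called, against 31.0% of all tested genes. Tspan4, which builds migrasomes, the vesicular organelles that form on the retraction fibres of migrating cells, spread widely at 50.9, 37.8 and 49.9 RPKM in siNC and 45.9, 27.9 and 62.1 RPKM in siQk (log2 fold change −0.18, SE 0.29, FDR 0.649). Tspan9 gave 6.82, 6.97 and 3.67 RPKM in siNC and 3.31, 2.93 and 4.20 RPKM in siQk, overlapping through siNC 3. It missed the threshold (log2 fold change −0.90, SE 0.28, FDR 0.0456), with a P of 0.0163 in edgeR, and was called in 4 of 14 alternatives. Tspan18 (0.556 to 2.0 RPKM in siNC, 1.5 to 2.11 RPKM in siQk) and Tspan11 (0.437 to 0.990 RPKM and 0.468 to 0.692 RPKM) were low and overlapped, and for both the sign of the fold change depended on 1 library. In siNC 3 the level of Tspan18 was the lowest of all 6 libraries.

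The remaining 6 members did not pass the filter on low values and were not tested. The leukocyte tetraspanin genes Cd37 and Cd53 had at most 8 and 1 tags in any library, and Cd53 had none in 3 libraries, where a count of 0 allows up to 3 tags (0.0213 to 0.0363 counts per 1000000 tags). Marker genes of leukocytes and microglia summed to 2.78 to 5.88 RPKM in siNC and 1.39 to 2.16 RPKM in siQk. The pan-leukocyte gene Ptprc was at most 0.0285 RPKM and the microglial gene Cx3cr1 at most 0.00461 RPKM. Tspan32, a further leukocyte member, had 26, 105 and 32 tags in siNC and 18, 5 and 24 tags in siQk, or 0.109 to 0.428 RPKM against 0.0272 to 0.0853 RPKM. It was called lower only where the filter on low values was loosened (log2 fold change −2.19, FDR 0.0277 and 0.031). Of the 10 leukocyte and microglia markers 2 were tested, and only the microglial gene P2ry12 was called lower (log2 fold change −3.16). It had 91, 829 and 368 tags in siNC, most of them in siNC 2, and 50, 36 and 85 tags in siQk. Cd68 was not called (log2 fold change −0.73, FDR 0.0659 by edgeR). Of the markers too low to be tested, Aif1 was higher in RPKM without overlap and Itgam lower, at no more than 15 and 9 tags. The part of these genes in the Tspan32 value was not tested.

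Tspan10, known from pigment cells, had 10, 50 and 4 tags in siNC and 7, 0 and 26 tags in siQk. Of the pigment genes 2 of 3 tested were called lower, against 17.2% of all tested genes. They were Dct (7.70, 6.33 and 3.21 RPKM in siNC, 1.58, 2.02 and 2.62 RPKM in siQk, log2 fold change −1.63) and Mitf (−0.69), while the enzyme gene Tyr was at most 0.00731 RPKM. Their part in the Tspan10 value was not tested. Tspan1 and Tspan8, of epithelia, had at most 14 and 13 tags, and 0 of 5 epithelial markers were abundant enough to be tested. Members of the wider family outside the naming rule gave no calls. The photoreceptor gene Rom1 was 0.896 ± 0.19 RPKM in siNC and 0.747 ± 0.0225 RPKM in siQk (SD, n = 3 each), Upk1a was not called (log2 fold change −0.23, FDR 0.358 by edgeR), Prph2 was at most 0.0382 RPKM and Upk1b was listed at 0.

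Over all 27 members the summed level was 2641, 2293 and 2499 RPKM in siNC and 1622, 1524 and 1707 RPKM in siQk, which was 65.3% of siNC (2478 ± 175 against 1617 ± 91.6, SD, n = 3 each). The groups did not overlap, and the exact permutation test, two-sided, gave its smallest possible p of 0.1, which is also the value adjusted over this sum and that of TspanC8. The family was dominated by few genes. Cd9, Cd81 and Cd63 together made up 71.7, 68.0 and 73.0% of the sum in siNC and 62.2, 61.6 and 60.3% in siQk. Within that trio the shares did not move alike, since Cd81 went from 25.8, 26.6 and 20.2% to 18.9, 18.8 and 18.8%, whereas Cd9 kept 21.6 to 29.5% in siNC and 24.7 to 27.5% in siQk. In siQk Cd9 was thus the largest component in every library, and in siNC Cd81 was the largest in siNC 1 and siNC 2 and Cd9 in siNC 3.

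**Figure D4:**
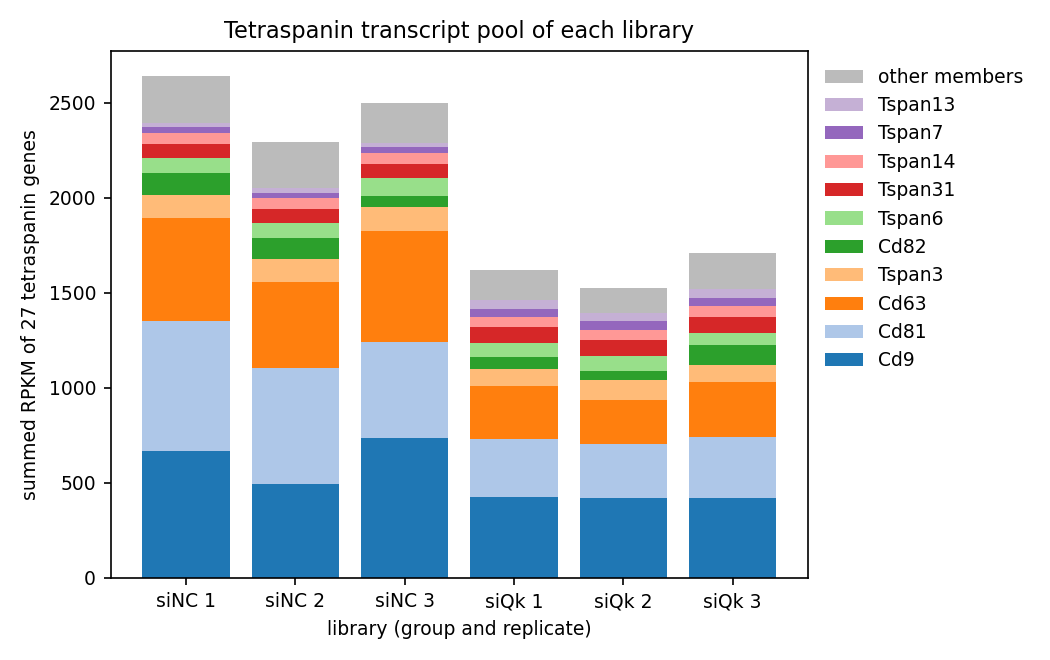
Summed tetraspanin RPKM of each library, stacked by member, with the less abundant members pooled. The bars start at 0 and stand at 2293 to 2641 RPKM in siNC and at 1524 to 1707 RPKM in siQk, and the segments of Cd81 and Cd63 shrink the most.

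Some members gained share as the sum became smaller, among them members called higher, not called and called lower. Tspan13 made up 0.829 to 1.19% of the sum in siNC and 2.75 to 2.82% in siQk. Tspan7 made up 1.25 to 1.33% in siNC and 2.48 to 3.07% in siQk. Tspan31, not called, made up 2.72 to 3.13% in siNC and 5.04 to 5.36% in siQk. Tspan3, called lower, made up 4.62 to 5.26% in siNC and 5.30 to 6.60% in siQk. Tspan6, also called lower, made up 2.98 to 3.65% in siNC and 3.72 to 5.25% in siQk. A share rises where a gene falls less than the sum, so these values describe the composition and not the level.

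Of the genes whose proteins tetraspanins bind directly, 6 of 12 tested were called lower and 1 higher, against 17.2% and 13.8% of all tested genes. Their median log2 fold change was −0.15. The calls on Adam10, Itga7 and Lrp5 among them were lost under several alternatives. Cldn11, the claudin of myelin that binds Tspan3, was 890 ± 188 RPKM in siNC and 389 ± 31.0 RPKM in siQk (SD, n = 3 each), with a log2 fold change of −1.35. Itgb1, the β1 integrin subunit common to the integrins of Cd151, Cd81 and Cd9, was 222 ± 23.9 RPKM in siNC and 161 ± 15.7 RPKM in siQk (log2 fold change −0.62, SE 0.10, FDR 0.00465 by edgeR). Cldn11 and Itgb1 were called in all 14 alternatives. The laminin receptor subunit gene Itga7 was lower (−0.78, called in 10 of 14 alternatives) and lost its call without siNC 2, siNC 3 or siQk 3 and under the block. The other laminin receptor subunits Itga3 (1.36, FDR 0.0397) and Itga6 (0.14, FDR 0.424) did not pass. For Itga3 the P of 0.0134 in edgeR was over the limit, and 5 of 14 alternatives called it higher. It was low, at 0.0819 to 0.320 RPKM in siNC and 0.516 to 0.593 RPKM in siQk, without overlap. Hbegf, the growth factor held by Cd9, was lower (−1.72, FDR 0.00628). The immunoglobulin-superfamily partners of Cd9 and Cd81 were not called, with Igsf8 at 0.38 (FDR 0.0598) and Ptgfrn at 0.10 (FDR 0.656). Epcam and Cr2 were too low to be tested.

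Of the genes of extracellular vesicle formation, 5 of 17 tested were called, 4 lower and 1 higher, with a median of −0.16, a share of calls near the 31.0% of all tested genes. Stam, of the endosomal sorting machinery, was 31.6 ± 7.48 RPKM in siNC and 17.0 ± 0.364 RPKM in siQk (SD, n = 3 each; log2 fold change −1.06, FDR 0.00656 by edgeR). Flot1, a membrane raft scaffold, was lower as well (−0.42) but was not called on library size alone (−0.27). The syndecan gene Sdc4 was lower (−1.46) and lost its call without siQk 2 (−1.34). Smpd3, the neutral sphingomyelinase that drives ceramide-dependent exosome release, was called higher (0.85). Its log2 fold change was 0.73 to 1.07 over the 14 alternatives, and 10 of these called it. It lost its call under the block and without siNC 3, siQk 1 or siQk 3. Vps4a was also called lower (log2 fold change −0.24, FDR 0.0129 by edgeR). Sdcbp (−0.07), Pdcd6ip (−0.23) and Tsg101 (−0.16) were not called. For Pdcd6ip and Tsg101 the P of 0.0138 and 0.0159 in edgeR was over the limit.

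By position, 4 neighbouring gene pairs of the family lay within 100000 bases of each other. Cd151 and Tspan4 are 3766 bases apart on chromosome 7, and Cd151 was called lower whereas Tspan4 was not called. Tspan32 and Cd81 are 33094 bases apart on the same chromosome. Tspan11 and Tspan9 are 7418 bases apart on chromosome 6, and neither was called. Tspan18 and Cd82 are 84605 bases apart on chromosome 2, and neither was called.

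Besides Tspan31 and Cdk4, several members share exon bases with a gene on the other strand, which a kit that does not mark strand cannot separate. The percentages are of GENCODE M21 exons. The annotation behind the deposited counts was not given, so how much of each overlap was counted is not known. Chid1 lies opposite 13.4% of the exon bases of Tspan4, and R74862 opposite 3.61% of those of Cd81. R74862 was itself lower (22.1 ± 3.77 RPKM in siNC, 12 ± 0.738 RPKM in siQk, SD, n = 3 each), at a level far below that of Cd81. Antisense transcripts that the tables do not list lie opposite 10.7% of the exon bases of Cd9 and 7.04% of those of Cd151. For the called members Tspan12 and Tspan2 such stretches cover 2.96% and 1.85% of the exon bases.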

How the data were processed

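The libraries were poly-A RNA-seq of mOPCs, 3 siNC and 3 siQk. Per the methods, the authors aligned paired reads to mm10 with OLego and counted them per gene with Quantas, whose versions and gene annotation were not given in the sources used here. The deposited tag numbers are estimated counts (23.1 to 26.2% of genes carry decimals), which were rounded to whole numbers. The deposited RPKM follow from tag number, exon length and library total (largest relative deviation 3.27e-13). A tag may be a read or a read pair.

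Genes with an average logCPM (log2 counts scaled to library size) above 0 were tested with edgeR 4.0.16 (quasi-likelihood, TMM, group as the only term, limma 3.58.1, R 4.3.3), and called at P below 0.01 and Benjamini-Hochberg FDR below 0.1. The SE is the absolute log2 fold change over the square root of F. The test was tested on simulated data. The common biological coefficient of variation was 0.146. Sums were compared by exact permutation. Replicates differed beyond sampling noise (chi-square per degree of freedom 38.0 to 342). The labels call them biological replicates without naming animals, so p-values measure the spread between these samples. 3′UTRs of at least 50 bases and the exon overlaps were taken from GENCODE M21.

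All tested members and Qk were named, with Adam10, the tested direct partners, the up to 4 largest called changes of each pathway list without overlap, and up to 3 top markers of a cell type list. Genes beyond this (overlapping or neighbouring genes, defining markers, further vesicle genes) were named after their values were seen. The members and lists were chosen with earlier results of these data known. Myrf was matched by Entrez number. Alternatives were DESeq2 1.42.0, 3 other normalizations, 2 other filters, a replicate block, another threshold and each library left out. Protein sequences were not used here. Some list genes are not reported here by name.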

Additional observations from a re-analysis of the deposited data

How the results depend on the processing

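Over 14 alternative analyses, 263 of 294 values of single tetraspanins kept their direction and their side of the threshold, 19 lost the call, 7 gained it and 5 changed sign, and of 434 values of other named genes 26 lost the call, 9 gained it and 3 changed sign. Qk was called in all 14 (log2 fold change −2.29 to −1.76). Changed tetraspanins numbered 9 to 14 and lower ones 8 to 12, against 12 and 10. Higher ones numbered 1 with RLE normalization, 1 under the replicate block and 1 to 2 with a library left out. Changed genes in all numbered 2478 (without siQk 1) to 3704 with a library left out, against 3879. With the replicate number as a block 9 tetraspanins and 2796 genes were called. Deviations from the group mean did not correlate positively between libraries of the same number (−0.051, −0.153 and −0.337 over 12488 genes). With 3 libraries per group this cannot show whether the samples were paired. With library totals scaled by TMM the summed difference was −1082 RPKM for all tetraspanins (main −860.4) and −42.5 RPKM for TspanC8 (main −27.1). With a library left out the log2 fold change ran from −0.57 to 0.14 for Tspan11 (positive without siNC 2), from −0.037 to 0.76 for Tspan18 (negative without siNC 3), from −0.48 to 0.081 for Tspan4 (positive without siQk 2), from −0.050 to 0.22 for Tspan5 (negative without siNC 3 or siQk 3) and from −0.047 to 0.23 for Ptgfrn. The log2 fold change of Chid1 became 0.015 on library size alone. Of all calls 55.4% were lower in the main analysis, 44.4% with upper quartile scaling and 31.4% on library size alone, and of the tetraspanin calls 83.3, 81.8 and 80.0%. The cause of these shifts was not tested.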
